A study of Mus musculus with 11 samples.

Results

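The nuclear-encoded subunits of the mitochondrial respiratory chain were followed in muscle stem cells of middle-aged and geriatric mice. The genes were taken by symbol: every gene of the expression table named as an Nduf subunit, an Sdh subunit, a Uqcr subunit, a Cox4 to Cox8 subunit or an Atp5 subunit, with the Ndufaf assembly factors left out. This rule gave 85 of the 20640 genes in the table. By name, 39 were counted in complex I, 4 in complex II, 8 in complex III, 18 in complex IV and 16 in complex V. The rule used names alone and no measured value. Of the 85 genes, 83 passed the filter on low values (1 RPKM or more in 2 or more libraries). Cox7b2 and Cox8c, known for expression in testis, did not pass: Cox8c was listed at 0 in 11 of 11 libraries and Cox7b2 reached at most 0.18 RPKM. RPKM is the authors' unit, a read count scaled for gene length and library depth.

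The cells came from limb muscle of mice carrying Pax7-CreERT2 and Rosa-YFP, in which tamoxifen marks cells that express Pax7, the transcription factor of muscle stem cells, with a yellow fluorescent protein. All mice had tamoxifen by mouth at 240 mg per kg for 5 days, at 12 to 14 weeks of age, and YFP-positive cells that lacked the lineage markers CD31, CD45 and Sca-1 were sorted later. The middle-aged group (3 libraries) was all such cells, with no VCAM1 gate in its name, of mice aged 10 to 14 months in the sample labels and 12 to 14 months in the protocol. Cells of geriatric mice, over 28 months old, were divided by surface VCAM1, an adhesion molecule of quiescent muscle stem cells, into VCAM1-high (3 libraries), VCAM1-low (2 libraries) and VCAM1-negative (3 libraries), with gates set on the middle-aged cells. The design text gives the lower 2 gates other names, Mid and Low/-, and the sample titles are followed here. Every comparison with the middle-aged cells therefore differs at once in age, in gating and in how long ago the label was induced. No label says that libraries came from separate animals, so p-values measure the spread between these libraries, which may be partly technical.

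The respiratory chain passes electrons from NADH (complex I) and succinate (complex II) through complex III and cytochrome c to complex IV, cytochrome oxidase, which reduces oxygen. The protons pumped on the way drive complex V, the ATP synthase. Mitochondrial DNA encodes a small core of subunits, and nuclear genes, most of them among those described here, supply the others. Quiescent muscle stem cells are known for few mitochondria, whereas muscle fibres are packed with them and use fibre-type isoforms of some cytochrome oxidase subunits (Cox6a2, Cox7a1 and Cox8b) in place of the body-wide Cox6a1, Cox7a2 and Cox8a.

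Of all members, these muscle isoforms differed most between VCAM1-negative and VCAM1-high cells, though none passed the test used below. The 250 bases upstream of the annotated start are therefore given for 2 muscle isoforms and 3 body-wide isoforms. These are the ones held by the RefSeq promoter table, which has no entry for Cox6a2 (GRCm38.p6, a different build from the GRCm39 of the authors' processing). All are written 5′ to 3′ on the gene's strand, with capitals marking matches to the searched motifs.
Cox7a1 (chr7:30183921-30184170, plus strand): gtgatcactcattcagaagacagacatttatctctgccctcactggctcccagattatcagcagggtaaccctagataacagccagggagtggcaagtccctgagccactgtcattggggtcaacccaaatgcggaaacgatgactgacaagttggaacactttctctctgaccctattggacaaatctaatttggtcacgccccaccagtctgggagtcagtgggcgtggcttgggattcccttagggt
Cox8b (chr7:140900447-140900696, minus strand): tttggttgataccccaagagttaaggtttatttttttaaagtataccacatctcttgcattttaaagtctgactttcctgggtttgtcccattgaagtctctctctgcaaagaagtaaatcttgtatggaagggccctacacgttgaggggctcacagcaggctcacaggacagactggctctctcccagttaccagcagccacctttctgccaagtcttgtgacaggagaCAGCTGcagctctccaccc
Cox7a2 (chr9:79759854-79760103, minus strand): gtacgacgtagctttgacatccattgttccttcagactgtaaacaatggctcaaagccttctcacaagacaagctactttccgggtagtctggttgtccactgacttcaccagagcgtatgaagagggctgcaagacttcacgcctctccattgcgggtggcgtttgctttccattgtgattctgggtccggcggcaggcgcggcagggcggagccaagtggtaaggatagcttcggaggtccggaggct
Cox8a (chr19:7217617-7217866, minus strand): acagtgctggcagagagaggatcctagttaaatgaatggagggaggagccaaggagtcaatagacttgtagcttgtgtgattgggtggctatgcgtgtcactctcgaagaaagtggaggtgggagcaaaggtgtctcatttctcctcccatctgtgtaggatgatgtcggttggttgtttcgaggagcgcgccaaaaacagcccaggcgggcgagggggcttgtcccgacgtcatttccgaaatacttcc
Cox6a1 (chr5:115348959-115349208, minus strand): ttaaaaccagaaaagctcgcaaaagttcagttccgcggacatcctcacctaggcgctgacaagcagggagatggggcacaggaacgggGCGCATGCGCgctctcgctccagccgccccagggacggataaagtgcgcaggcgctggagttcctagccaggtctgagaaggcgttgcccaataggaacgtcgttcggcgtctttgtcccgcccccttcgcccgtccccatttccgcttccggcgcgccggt
In these stretches the capitals of Cox8b are CAGCTG, a myogenic E-box, and those of Cox6a1 are the NRF1 motif GCGCATGCG read on both strands, whose matches overlap. The table held 68 of the 85 genes. In windows from 250 bases before to 50 after the start, searched on both strands, GCGCATGCG was in 7 of the 68 genes, or 10.3%, against 4.17% of 9270 tested genes and 1.95% of all 27025 genes in the promoter table. The YY1 motif AAGATGGCG was in 7 of 68 (10.3%, against 3.74% of tested genes). TCAAGGTCA, the motif of the estrogen-related receptors, was in 2 of 68 (Sdhd and Atp5g3; 2.94% against 0.302%). The GABP motif CCGGAAGTG was in 2 of 68 (2.94% against 5.07%). CAGCTG was in 6 of 68 (8.82% against 17.9%), and TATAAA in 8 of 68 (11.8% against 8.80%). The MEF2 consensus was in 0 of 68 (2.16% of tested genes). These matches are descriptions of the windows and were not tested.

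Libraries had an estimated depth of 20.1 to 29.8 M reads, read from the steps of low RPKM values, and RPKM sums of 413666 to 455394. Vcam1 was 230 to 344 RPKM in middle-aged cells, 188 to 418 in VCAM1-high, 115 to 177 in VCAM1-low and 48.6 to 122 in VCAM1-negative cells. Pax7 was present in every library, at 1.7 to 7.8 RPKM. Ly6a, which encodes the Sca-1 antigen sorted against, reached 66.3 RPKM in the third middle-aged library and 40.4 RPKM in the third VCAM1-high library, with a maximum of 36.2 elsewhere. Of the 83 tested members, 78 had their highest value in middle-aged replicate 1. The lowest values were spread: 27 lay in VCAM1-low replicate 2, 23 in VCAM1-negative replicate 3, 17 in VCAM1-high replicate 3 and 8 in VCAM1-negative replicate 1.

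The levels of the subunits spanned several orders of magnitude. Atp5b, the catalytic beta subunit of the ATP synthase, was the most abundant, with a mean of 749 RPKM over the 11 libraries. Cox4i1, a structural subunit of cytochrome oxidase, had the highest mean of complex IV at 277 RPKM. Uqcrc1, a core protein of complex III, led that complex at 155 RPKM. Sdha, the flavoprotein of succinate dehydrogenase, was at 133 RPKM and Ndufv1, the NADH-binding subunit of complex I, at 121 RPKM. The lowest kept members of each complex were Ndufa4l2 at 2.45 RPKM, Sdhc at 68.7, Uqcrq at 14.4, Cox4i2 at 0.982 and Atp5k at 8.31. The small subunits Atp5k and Uqcrq thus lay far below the large core subunits of the same complexes on this per-length scale.

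Summed over its genes, complex V was the most abundant: its members added up to 3936, 2326 and 2681 RPKM in middle-aged cells (mean 2981 ± 846, SD, n = 3). In VCAM1-high cells the sum was 2287, 1907 and 2292 RPKM. VCAM1-low cells held 1866 and 1787 RPKM, and VCAM1-negative cells 1737, 2216 and 2099. All 3 middle-aged libraries were therefore above all 8 geriatric libraries for complex V. Complex I summed to 2061 ± 698 RPKM in middle-aged and 1368 ± 222 RPKM in geriatric cells (n = 3 and 8), and VCAM1-high replicate 1, at 1795, lay above middle-aged replicates 2 and 3, at 1583 and 1738. For complex II the sums were 491 ± 153 and 365 ± 36.3 RPKM, for complex III 693 ± 214 and 458 ± 55.8, and for complex IV 1286 ± 460 and 883 ± 161. In complexes II and IV the groups overlapped, and in complex III the lowest middle-aged library, at 524 RPKM, stood just above the highest geriatric one, at 520. All 85 genes together took 1.69 ± 0.481% of the summed RPKM in middle-aged and 1.18 ± 0.122% in geriatric cells.

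**Figure D1:**
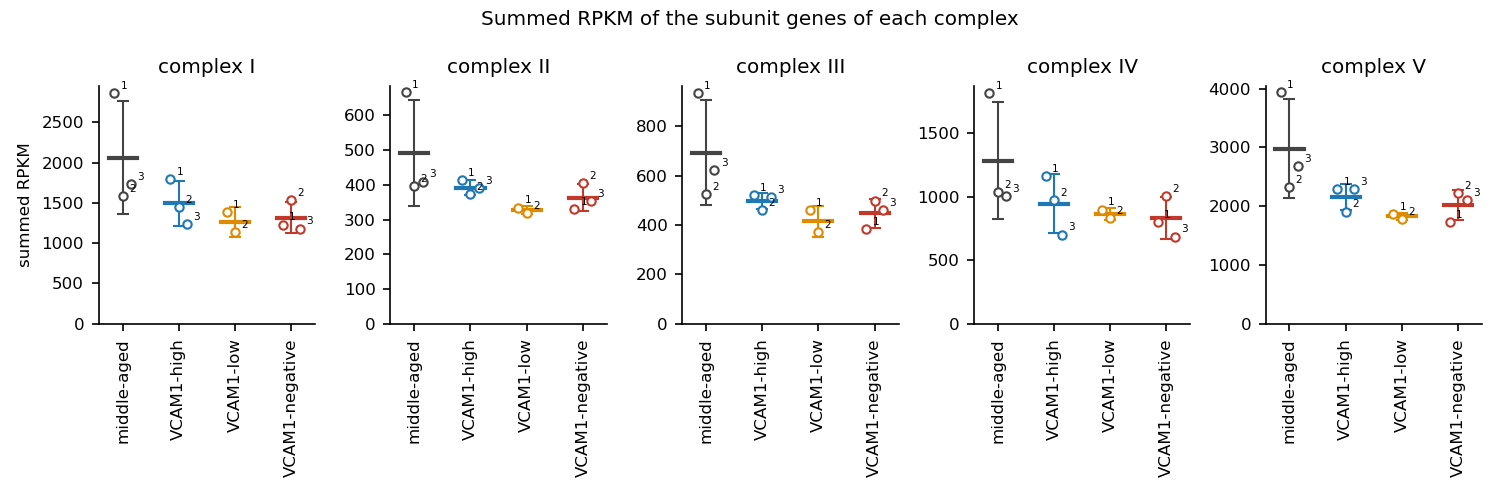
Summed RPKM of the subunit genes of complexes I to V in each library (y axis, from 0; circles, numbered by replicate), with the group mean (bar) and SD (whisker), for 3 middle-aged, 3 VCAM1-high, 2 VCAM1-low and 3 VCAM1-negative libraries. Middle-aged replicate 1 is the highest library in all 5 panels, and the other middle-aged libraries lie within the VCAM1-high range in complexes I, II and IV.

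Geriatric cells as a whole, taken as the mean of the 3 VCAM1 gates, had lower values of most subunit transcripts than middle-aged cells. On the log2(RPKM + 1) scale 79 of 83 members were below middle-aged, against 50.6% of all genes, with a median difference of -0.59, against -0.01 over all 11568 genes tested. By limma with Benjamini-Hochberg adjustment over all genes, 17 of 83 members fell and 0 rose, where 7.81% of all tested genes were called lower and 8.04% higher. At an unadjusted p under 0.05 the members numbered 47, against 34.1% of all genes. The 17 were 9 of complex I, 0 of complex II, 2 of complex III, 1 of complex IV and 5 of complex V. The fit treated the 8 geriatric libraries as independent of each other. Deviations of same-numbered geriatric libraries correlated at 0.403 to 0.581, so its SEs and p-values for this comparison may be too small. In bulk RNA, fewer cells of a type and less RNA per cell cannot be told apart. Middle-aged replicate 1 decided these calls: without it, 0 of 83 members passed, the median was -0.34 with 75 of 83 below 0, and the share of all genes called lower was 1.76%. In that fit 15 members had an unadjusted p under 0.05, and the share of all genes that did is not given here. Other libraries weighed on the count too: it was 0 without VCAM1-low replicate 2, 4 without middle-aged replicate 3, 6 without VCAM1-high replicate 2, 8 without VCAM1-negative replicate 3, and 11 without middle-aged replicate 2 or VCAM1-negative replicate 2. The shares of all genes called in either direction were, in that order, 6.88%, 5.54%, 10.1%, 14.1%, 9.01% and 10.9%.

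The excess of middle-aged replicate 1 ran through the whole chain. The ratio of its RPKM to the mean of middle-aged replicates 2 and 3 had a median of 1.75 over the 83 members, with 80 above 1, against a median of 1.09 over all genes tested. Measured as the deviation from each gene's own mean, the median of the members was 0.94 in that library and 0.10 and 0.19 in middle-aged replicates 2 and 3. It was 0.27, -0.05 and -0.38 in VCAM1-high cells, -0.13 and -0.37 in VCAM1-low cells, and -0.26, 0.05 and -0.39 in VCAM1-negative cells. The geriatric libraries were thus spread over a range of their own that reached past middle-aged replicates 2 and 3.

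**Figure D2:**
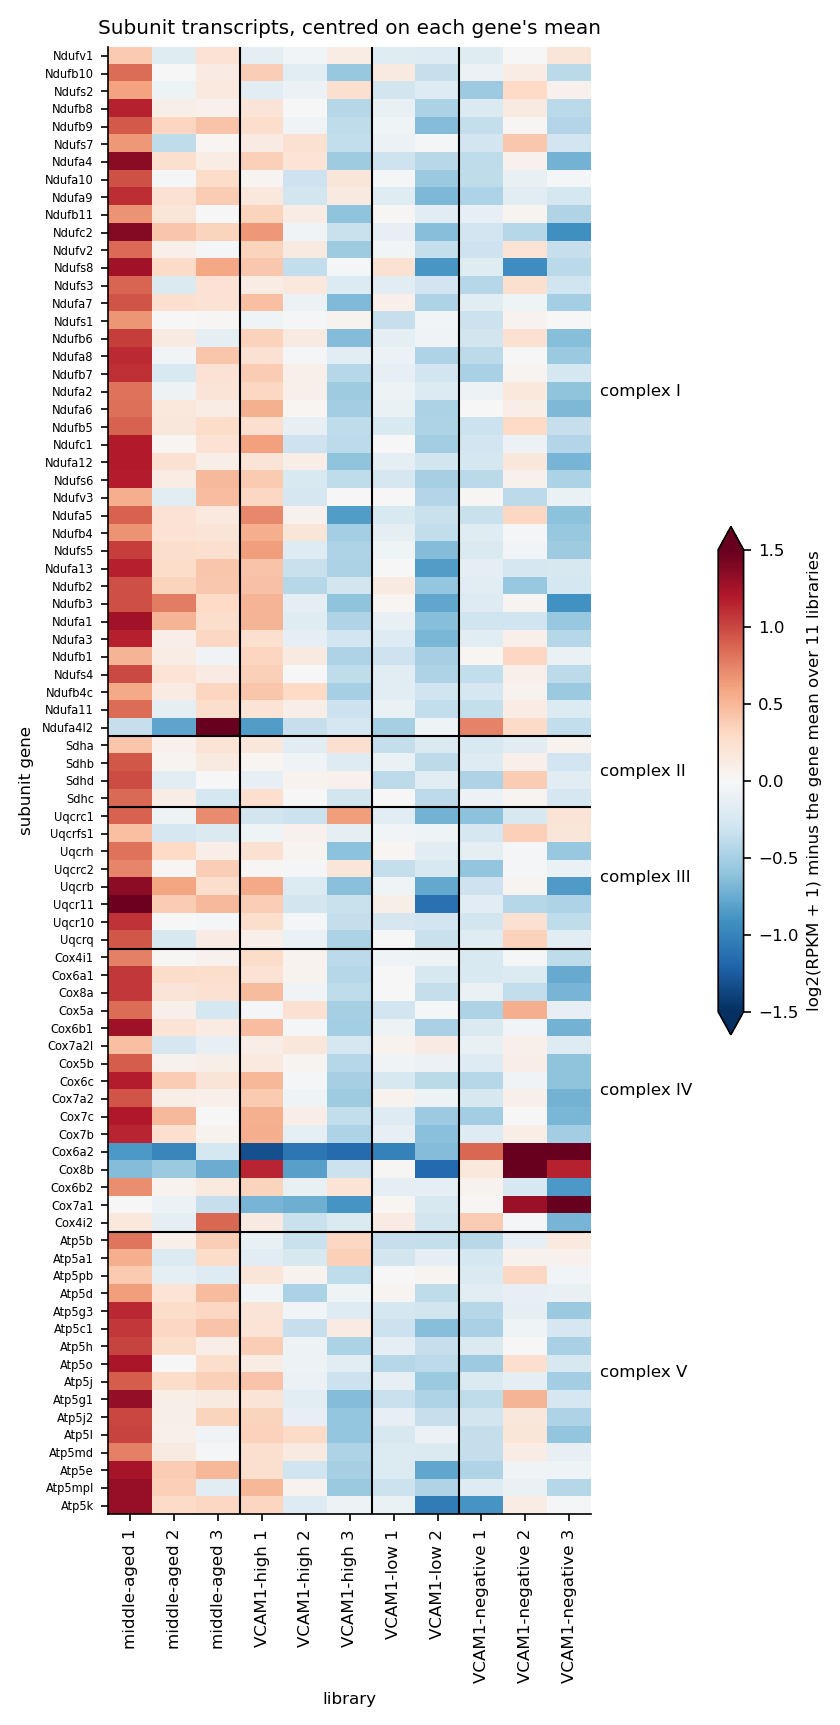
Each of the 83 tested members (rows, by complex and then by mean RPKM) in each of the 11 libraries (columns), as log2(RPKM + 1) minus the gene's mean over the libraries (red above, blue below; the colour scale stops before the largest values). Middle-aged replicate 1 is red in nearly every row, and Cox6a2, Cox8b and Cox7a1 are red in VCAM1-negative replicates 2 and 3.

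In complex I, which oxidises NADH, all 39 members were below middle-aged in geriatric cells (median -0.61, and -0.35 without middle-aged replicate 1). Its 7 core subunits, which carry the flavin and the iron-sulphur clusters, had a median of -0.33, and its 32 accessory subunits one of -0.63. The 32 were grouped by name and include Ndufa4, now counted with complex IV, and its relative Ndufa4l2. Of the core subunits 1 fell: Ndufs8, which holds iron-sulphur clusters of the electron path, was 114, 57.7 and 71.3 RPKM in middle-aged cells and 24.3 to 62.6 (median 39.0) in the 8 geriatric libraries. Its log2 difference was -0.98 ± 0.29 (SE; limma adjusted p = 0.0433). The ranges overlapped through VCAM1-high replicate 1, at 62.6 RPKM. The most abundant core subunit, Ndufv1, was 157, 106 and 139 RPKM against 105 to 136 (median 113), a log2 difference of -0.21 ± 0.15 that did not pass (adjusted p = 0.354 by limma).

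Among the accessory subunits of complex I, 8 fell. Ndufc2, of the membrane arm, was 134, 68.5 and 64.6 RPKM in middle-aged cells and 26.4 to 80.7 (median 41.0) in geriatric cells, a log2 difference of -0.99 ± 0.28 (limma adjusted p = 0.0365). Ndufa1, a small membrane subunit, was 33.9, 19.6 and 16.4 RPKM against 8.33 to 19.7 (median 10.8), a difference of -0.94 ± 0.25 (adjusted p = 0.0314). Both overlapped the middle-aged range through VCAM1-high replicate 1. Ndufa9 and Ndufb9 did not overlap. Ndufa9, which sits where the 2 arms of the complex meet, was 127, 68.8 and 76.7 RPKM in middle-aged cells and at most 65.5 in geriatric ones (log2 -0.81 ± 0.21, adjusted p = 0.0261). Ndufb9 was 156, 103 and 111 RPKM and at most 98.6 (log2 -0.78 ± 0.20, adjusted p = 0.0290). The other 4 were Ndufb3 (log2 -0.95), Ndufa13 (-0.87), Ndufs6 (-0.83) and Ndufb2 (-0.78).

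Complex II is the one complex of the chain made wholly from nuclear genes, and its 4 subunits gave the smallest median difference, -0.37 (-0.15 without middle-aged replicate 1). None of the 4 passed the test. Sdha was 176, 138 and 152 RPKM in middle-aged cells and 103 to 155 (median 117) in geriatric cells (log2 -0.34 ± 0.14, limma adjusted p = 0.128). Sdhb, the iron-sulphur subunit, was 222, 119 and 127 RPKM against 87.9 to 122 (log2 -0.52 ± 0.20, adjusted p = 0.0877). The membrane anchors Sdhc and Sdhd had differences of -0.33 ± 0.22 and -0.40 ± 0.25. In each of the 4 genes middle-aged replicates 2 and 3 lay inside or just above the geriatric range.

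In complex III, Uqcr11 and Uqcrb, 2 of its 5 small subunits, fell. Uqcr11 was 93.7, 43.5 and 47.0 RPKM in middle-aged cells and 14.8 to 43.2 (median 26.8) in geriatric cells, the largest difference of any member at -1.09 ± 0.29 (limma adjusted p = 0.0323). Its groups did not overlap, by a narrow margin. Uqcrb was 111, 65.6 and 52.1 RPKM against 23.6 to 64.5 (median 36.0), a difference of -1.03 ± 0.31 (adjusted p = 0.0459). Uqcrfs1, the Rieske iron-sulphur protein that carries out electron transfer to cytochrome c1, was at the other end: 122, 74.8 and 76.1 RPKM against 74.3 to 114 (median 85.7), a difference of 0.00 ± 0.19 (adjusted p = 0.997). Its sign turned to below 0 under median ratio scaling, at -0.01. Uqcrc1 spread widely in both groups, at 268, 138 and 237 RPKM against 88.2 to 224.

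In complex IV, 1 member fell, Cox6a1, the body-wide form of subunit VIa. It was 299, 173 and 172 RPKM in middle-aged cells and 84.1 to 167 (median 123) in the geriatric libraries, so the groups did not overlap (log2 -0.73 ± 0.22, limma adjusted p = 0.0462). Cox4i1 was 456, 273 and 282 RPKM against 206 to 326 (median 257), and its difference of -0.38 ± 0.20 did not pass (adjusted p = 0.198). Cox7a2l, a relative of Cox7a2 that takes part in joining complexes III and IV, was 84.3, 51.3 and 56.2 RPKM in middle-aged cells, of which the last 2 lay within or beside the geriatric range of 51.3 to 69.0. The median of the 16 tested members was -0.45, and the muscle isoforms Cox6a2 and Cox8b were the most extreme in the other direction, at 0.84 ± 0.48 and 0.80 ± 0.43, neither of which passed (adjusted p = 0.242 and 0.211).

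Complex V had the lowest median, -0.68 over 16 members. Of its 5 called members 3 belong to the F1 part, as subunits of its rotating central stalk. Atp5c1, the rotating gamma subunit, was 253, 150 and 163 RPKM in middle-aged cells and 77.1 to 139 (median 99.0) in geriatric cells (log2 -0.85 ± 0.20, limma adjusted p = 0.0189, the lowest of any member). Atp5e, the epsilon subunit, was 60.3, 33.0 and 35.9 RPKM against 14.2 to 29.8 (log2 -0.995 ± 0.23, adjusted p = 0.0190). Atp5d, the delta subunit, was 251, 188 and 226 RPKM against 116 to 167 (log2 -0.60 ± 0.16, adjusted p = 0.0288). In all 3 the groups did not overlap. The same held for Atp5g3, one of the genes of the proton-carrying c ring, at 342, 189 and 194 RPKM against 105 to 179 (log2 -0.79 ± 0.20, adjusted p = 0.0247). Atp5j, of the stalk that holds the head still, had a difference of -0.73 ± 0.20 (adjusted p = 0.0374).

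The 2 large subunits, which form the catalytic head of F1, did not pass the test. Atp5b was 1265, 761 and 932 RPKM in middle-aged cells and 540 to 896 (median 618) in geriatric cells (log2 -0.59 ± 0.20, adjusted p = 0.0629 by limma). Atp5a1, the alpha subunit, was 533, 318 and 444 RPKM against 302 to 469 (median 330), with a difference of -0.30 ± 0.19 (adjusted p = 0.291). In all, 8 members were lower in all 8 geriatric libraries than in all 3 middle-aged ones (Atp5g3, Cox6a1, Atp5d, Atp5c1, Ndufb9, Ndufa9, Uqcr11 and Atp5e), or 8 of 83 where 4.95% of all tested genes were.

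**Figure D3:**
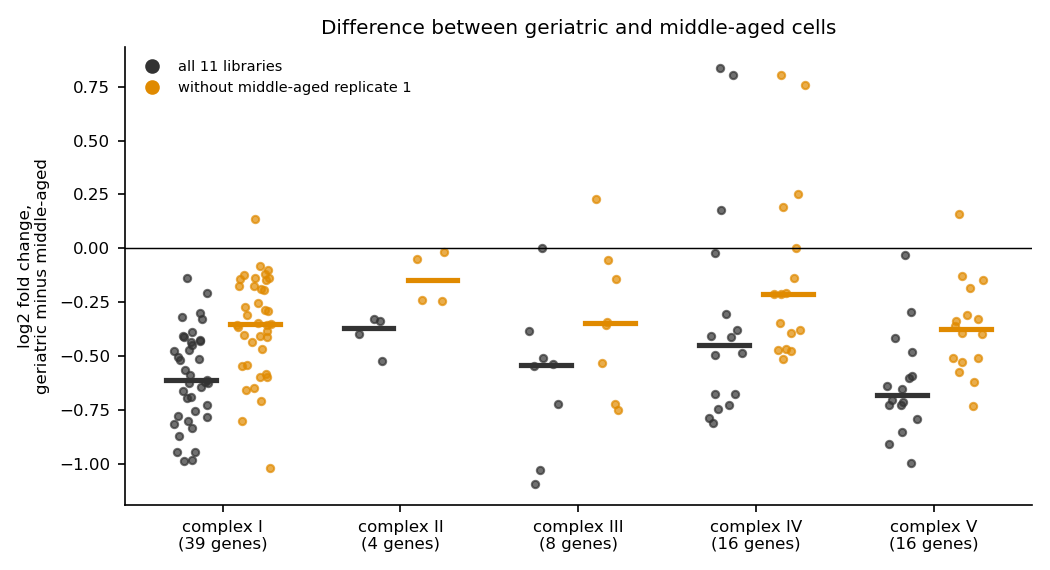
The log2 fold change of each tested member between geriatric and middle-aged cells (y axis; points spread sideways for visibility), by complex, with all 11 libraries (dark) and without middle-aged replicate 1 (orange); bars are medians. With all libraries the medians run from -0.37 in complex II to -0.68 in complex V; without that library from -0.15 to -0.37.

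Markers of other cell types varied between the same libraries. The 10 muscle stem cell markers had sums between 2109 and 2975 RPKM at middle age and between 1181 and 2698 RPKM in the geriatric libraries. They include Vcam1, on which the geriatric cells were gated. Sdc4, at 701 to 1249 RPKM over the 11 libraries, was the largest part of each sum. The 10 markers of fibro-adipogenic progenitors, the connective tissue cells of muscle, had sums between 1882 and 3459 RPKM at middle age and between 1167 and 2276 RPKM later, carried mostly by Gsn at 646 to 2299 RPKM over the 11 libraries. Its members did not move as one: limma called 3 lower and 1 higher, against 7.81% and 8.04% of all genes. The collagen gene Col3a1 was 337, 303 and 290 RPKM in middle-aged cells and 6.46 to 201 in geriatric cells (log2 -3.83 ± 0.64, adjusted p = 0.00645), and Dpt and Col1a1 were the other 2 called lower. Dcn, the proteoglycan decorin, was 24.5, 52.9 and 485 RPKM against 326 to 795 (log2 2.51 ± 0.67, adjusted p = 0.0314). Pdgfra, of the same list, was 0.11, 0.14 and 1.69 RPKM against 0.50 to 2.37. Lum was 4.68, 4.13 and 36.6 RPKM against 11.1 to 26.0. Both were thus lowest in middle-aged replicates 1 and 2, where Col3a1 was highest. Without middle-aged replicate 1, Col3a1 and Dpt passed and Col1a1 and Dcn did not (adjusted p = 0.104 and 0.138). The 3 erythroid markers in the table summed to 5.77 to 165 RPKM against 14.0 to 650, and the 8 smooth muscle and pericyte markers to 178 to 490 against 64.6 to 204. The highest value of that last list was in middle-aged replicate 1. Of the 4 tested adipocyte markers 2 rose by limma: Cidec, of the lipid droplet, was at most 0.02 RPKM in middle-aged cells and 2.11 to 22.7 in geriatric cells (adjusted p = 0.0100; 0.0461 without middle-aged replicate 1), and Adipoq, which encodes adiponectin, at most 0.04 against 1.38 to 14.6 (adjusted p = 0.0145; 0.0578 without it). The other 2, Plin1 and Fabp4, did not pass. Plin1 was at most 0.02 RPKM against 0.08 to 3.75. Fabp4 was 6.23, 10.5 and 202 RPKM in middle-aged cells and 11.2 to 92.3 in geriatric cells. The sum of the 7 adipocyte and brown fat markers was therefore highest in middle-aged replicate 3, at 202 RPKM, against at most 113 in geriatric libraries. All 8 tested macrophage markers were above middle-aged and none passed (1 at an unadjusted p under 0.05, against 34.1% of all genes). The sum of the macrophage markers was 979 RPKM in VCAM1-high replicate 3 and 23.7 to 247 elsewhere. The 10 endothelial markers summed to 320 RPKM in middle-aged replicate 3 and 17.7 to 160 elsewhere. The part of these cells in the differences of the subunit genes was not tested.

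The VCAM1 gates were then compared with middle-aged cells one at a time. These comparisons share the middle-aged libraries and are not independent of each other or of the one above. In VCAM1-high cells, the gate nearest to the middle-aged cells in Vcam1, 82 of 83 members were below middle-aged, against 45.6% of all genes (median -0.47, all genes 0.04). Limma called 0 members, where 0.605% of all genes were called, and 14 had an unadjusted p under 0.05, against 14.9% of all genes. In 11 members all 3 VCAM1-high libraries lay below all 3 middle-aged ones, as in 6.36% of all genes. The most extreme were Ndufa4l2 (-0.92 ± 0.68), Atp5e (-0.89 ± 0.28, limma adjusted p = 0.171), Uqcr11 (-0.86 ± 0.35) and Uqcrb (-0.82 ± 0.37). Ndufa4l2, a relative of Ndufa4 induced by low oxygen, owed its place to middle-aged replicate 3: it was 13.6 RPKM there and 0.47 to 3.41 in every other library, and without that replicate the difference was 0.09. Cox8b alone was above, at 0.65 ± 0.52. With the replicate number as a block, 7 members passed as lower in VCAM1-high cells, where 2.81% of all genes did. They were Atp5d, Ndufc2, Ndufs8, Uqcr11, Ndufa13, Ndufb2 and Ndufa1, with log2 differences of -0.62 to -0.86 and limma adjusted p-values of 0.0228 to 0.0491. That pairing was read from correlations in these same data (0.211 to 0.554), between libraries from mice of different ages. The fit spanned all 11 libraries, and its numbers did not pair middle-aged with VCAM1-negative cells (-0.025 to 0.081). With no block and without middle-aged replicate 1, the median was -0.17 and 0 members passed, with 0.0348% of all genes called lower. In that fit 2 members had an unadjusted p under 0.05, and the share of all genes that did is not given here.

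VCAM1-negative cells had 79 of 83 members below middle-aged, against 51.6% of all genes (median -0.60, all genes -0.02). All 3 libraries lay below all 3 middle-aged ones in 36 members and above them in 3, as in 20.3% and 18.7% of all genes. Here limma called 9 members lower and 1 higher, where 7.38% of all genes were called lower and 7.06% higher. The 9 were Ndufc2 (-1.25 ± 0.33), Ndufs8 (-1.21 ± 0.35), Ndufa1 (-1.06 ± 0.30), Atp5g3 (-0.95 ± 0.24), Cox6a1 (-0.93 ± 0.26), Ndufa9 (-0.87 ± 0.25), Atp5c1 (-0.87 ± 0.24), Ndufb9 (-0.81 ± 0.24) and Atp5j (-0.81 ± 0.25), with limma adjusted p-values of 0.0277 to 0.0492. Every one of them is also among the 17 members called between geriatric and middle-aged cells, a comparison that uses the same libraries. The count rested on single libraries. It was 0 lower without middle-aged replicate 1, where 1.86% of all genes were called lower and 2.59% higher, and also 0 lower without VCAM1-negative replicate 2 or 3, 1 without VCAM1-negative replicate 1, and 4 without middle-aged replicate 3. Without VCAM1-negative replicate 2, 3 or 1, or middle-aged replicate 3, limma called 2.95%, 7.18%, 10.6% and 6.87% of all genes in either direction. Cox6a2 was the member called higher, and it passed in each of these fits.

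VCAM1-low cells, with 2 libraries, had 80 of 83 members below middle-aged, against 54% of all genes (median -0.66, all genes -0.05). In 61 members both libraries lay below all 3 middle-aged ones, as in 24.9% of all genes. Limma called 1 member, Atp5c1, lower (1.88% of all genes called lower). Atp5c1 was 96.8 and 77.1 RPKM there, below all 3 middle-aged libraries (log2 -1.08 ± 0.26, limma adjusted p = 0.0481), and without middle-aged replicate 1 it did not pass (adjusted p = 0.113). With 1 library left out, it passed only where that library was VCAM1-high replicate 2 or 3. Between gates of geriatric cells, limma called 0 of 83 members for VCAM1-low against VCAM1-high and 0 for VCAM1-negative against VCAM1-low, where 0% of all genes were called. At an unadjusted p under 0.05 there were 0 and 3 members, against 2.91% and 1.88% of all genes. With the replicate block over the 8 geriatric libraries there were 21 and 3, and the share of all genes at that threshold is not given here. After adjustment that block called 0 members in both, with 0.00883% and 0% of all genes. The medians of the members were -0.24 and 0.06, or -0.34 (79 of 83 below 0) and 0.17 (12 of 83 below 0) with the replicate block over the 8 geriatric libraries. They rested on single libraries: without VCAM1-low replicate 2 they were -0.08 and -0.09, and without VCAM1-low replicate 1 they were -0.34 and 0.21. The first was -0.06 without VCAM1-high replicate 1 and -0.37 without VCAM1-high replicate 3. The second turned to -0.05 without VCAM1-negative replicate 2, and was 0.11 and 0.13 without VCAM1-negative replicates 1 and 3.

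The contrast of VCAM1-negative with VCAM1-high cells asks how the gates differ at one age. Most of the respiratory chain lay slightly below 0: 70 of 83 members did, against 60.8% of all genes, the median over the members was -0.17, against -0.07 over all genes, and the medians of complexes I to V lay between -0.09 and -0.18. Single libraries decided how far below 0 it lay. Without VCAM1-high replicate 1, 42 of 83 members were below 0 and the median was -0.01, against -0.08 over all genes. Without VCAM1-negative replicate 3 it was -0.09, against -0.11 over all genes, while without VCAM1-high replicate 3 it was -0.33 and without VCAM1-negative replicate 2 -0.29. By limma 0 members passed and 0% of all genes did, with 2 members at an unadjusted p under 0.05 (6.53% of all genes), Cox6a2 and Cox7a1, both higher in VCAM1-negative cells. Below 0, the most extreme were Ndufc2 (-0.63 ± 0.33), Ndufs8 (-0.51 ± 0.35), Cox6b2 (-0.49 ± 0.26) and Cox7c (-0.49 ± 0.32). Above 0 they were Cox6a2, Cox7a1, Cox8b and Ndufa4l2 (0.70 ± 0.68). Without overlap between the 3 libraries of each group, 2 members were higher (3.28% of all genes) and 1 was lower (8.08% of all genes).

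Cox6a2, the heart and skeletal muscle form of subunit VIa, was 5.24, 53.6 and 17.7 RPKM in the 3 VCAM1-negative libraries. It was 0.38, 0.62 and 0.55 RPKM in VCAM1-high cells, 0.70 and 1.20 in VCAM1-low cells, and 0.89, 0.75 and 1.87 in middle-aged cells. All 3 VCAM1-negative libraries lay above the other 8, and they differed widely among themselves. Its log2 difference from VCAM1-high cells was 3.62 ± 0.58 and missed the threshold by limma (adjusted p = 0.0558). With the replicate number as a block it passed, at an adjusted p of 0.0287 over 11 libraries, where 0.277% of all genes were called higher, and 0.0174 over the 8 geriatric ones, where 0.98% were. Against middle-aged cells the difference was 3.13 ± 0.58 (adjusted p = 0.0107; 0.0402 without middle-aged replicate 1), and Cox6a2 was the 1 member called in the F test of any difference among the 4 groups, where 3.32% of all genes were. That F test call was lost without middle-aged replicate 1 or 2, VCAM1-low replicate 2 or VCAM1-negative replicate 3. Without VCAM1-negative replicate 1, the library with the least Cox6a2 of its group, both Cox6a2 and Cox7a1 passed against VCAM1-high cells.

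Cox7a1, the muscle form of subunit VIIa, was 0.87, 3.53 and 4.75 RPKM in VCAM1-negative cells against 0.14, 0.11 and 0.00 in VCAM1-high cells. It was 0.89 and 0.57 RPKM in VCAM1-low cells and 0.86, 0.74 and 0.46 in middle-aged cells, so that VCAM1-negative replicate 1 stood level with the first library of each of those groups. The log2 difference from VCAM1-high cells was 1.76 ± 0.34 (limma adjusted p = 0.112, and 0.0408 with the replicate block over the 8 geriatric libraries). Cox8b, the muscle form of subunit VIII, was 2.08, 8.39 and 5.15 RPKM in VCAM1-negative cells, but also 5.10 in VCAM1-high replicate 1, with 0.57 and 1.19 in the other 2. Its difference from VCAM1-high cells was 1.03 ± 0.52 (adjusted p = 0.794) and from middle-aged cells 1.68 ± 0.52 (adjusted p = 0.0516). At values this low, one read in a gene of 1 kilobase is worth 0.0336 to 0.0498 RPKM. With the same block over the geriatric libraries Ndufc2 also passed, as lower in VCAM1-negative cells (adjusted p = 0.0403), where 3.43% of all genes were called lower.

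The body-wide partners of these isoforms did not rise with them. Cox6a1 was 121, 124 and 84.1 RPKM in VCAM1-negative and 167, 148 and 106 in VCAM1-high cells. Cox7a2 was 38.6, 48.3 and 27.7 RPKM against 60.4, 43.7 and 31.3, and Cox8a was 92.8, 76.8 and 60.6 against 138, 95.7 and 75.8. Cox6a2 therefore made up 4.14% to 30.2% of the RPKM of both VIa forms in VCAM1-negative libraries and 0.227% to 1.08% in all others. Cox7a1 made up 2.20% to 14.6% of its pair, against 0% to 1.83%, and Cox8b 2.19% to 9.85%, against 0.294% to 3.57%. The other isoforms named by tissue showed no such split. Cox4i2, the lung form of subunit IV, was 0.18 to 2.48 RPKM over the 11 libraries, and Cox6b2, the testis form of subunit VIb, 0.79 to 4.26. Of the c ring genes Atp5g1 and Atp5g3, Atp5g1 made up 28.2% to 37.6% of their summed RPKM in VCAM1-negative libraries and 21.6% to 30.4% in the other 8, ranges that overlap. Of the remaining members with a tissue isoform, Ndufa4, named for complex I but now counted with complex IV, was 37.4 to 160 RPKM, Cox6b1 46.3 to 185 and Cox7b 10.4 to 38.0, each highest in middle-aged replicate 1. Ndufb4c, named as a copy of Ndufb4 and uncertain because the counting may have split reads between them, was 25.2% to 28.8% of that pair.

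**Figure D4:**
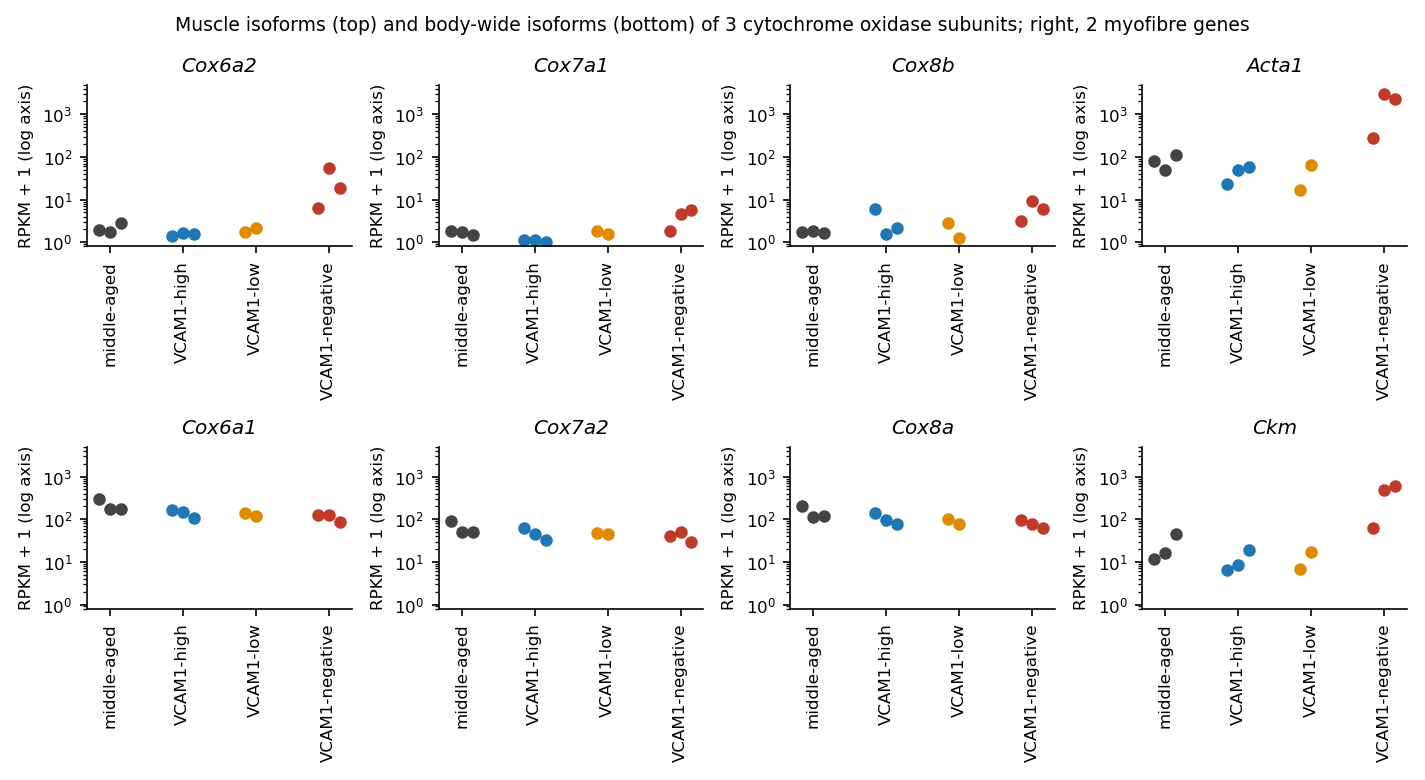
RPKM + 1 on one shared log axis in each library of the 4 groups, for the muscle isoforms Cox6a2, Cox7a1 and Cox8b (top), their body-wide partners (bottom) and the myofibre genes Acta1 and Ckm (right). The 3 VCAM1-negative libraries are above the other 8 for Cox6a2, Acta1 and Ckm, while Cox6a1, Cox7a2 and Cox8a show no such rise.

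Many genes of the contractile fibre were, like the muscle isoforms, highest in VCAM1-negative libraries. Acta1, skeletal muscle actin, was 280, 3040 and 2254 RPKM in VCAM1-negative libraries and 15.4 to 109 in the other 8. Ckm, muscle creatine kinase, was 62.7, 479 and 597 RPKM against 5.3 to 43.9. Ckmt2, the creatine kinase of muscle mitochondria, was 1.9, 16.5 and 17.7 RPKM against 0.2 to 3.3. The 14 myofibre markers in the table summed to 779 to 7694 RPKM in VCAM1-negative libraries and 87.6 to 453 in the other 8, and none was at 0 throughout. Of the 14, Actn3, Pvalb, Mb and Eno3 did not set VCAM1-negative replicate 1 apart. They were 50.3, 5.67, 7.10 and 22.5 RPKM there and up to 87.0, 14.8, 11.1 and 52.7 in the other 8. All 14 were above VCAM1-high cells (median log2 difference 3.91). None passed by limma (lowest adjusted p = 0.0501), where 0% of all genes did. All 14 had an unadjusted p under 0.05, against 6.53% of all genes. With the replicate number as a block 10 passed. That block called 0.277% of all genes higher over 11 libraries and 0.98% over the 8 geriatric ones. The 6 slow myofibre markers in the table summed to 75.0 to 114 RPKM in VCAM1-negative and 47.0 to 88.7 in the other libraries, ranges that overlap. The part of these fibre genes in the isoform values was not tested.

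The length of the transcript, a property the choice of genes did not use, went with the deviations of the members to differing degrees between libraries. Subunit transcripts are short, with a median of 645 bases in the GENCODE annotation, against 2110 bases over all tested genes. Of the 83 members 65 were at most 1000 bases long, against 18.5% of all genes. These lengths are medians over annotated transcripts, and some are doubtful. The core subunits Uqcrc1 and Ndufs1 are given 533 and 651 bases and the c ring gene Atp5g1 2675.5, so the split may misplace some members. In middle-aged replicate 1 the short members deviated by a median of 0.95 and the 18 longer ones by 0.84, while other genes of up to 1000 bases deviated by 0.29 (all 2132, members included) and longer genes by 0.02. In VCAM1-high replicate 3 the short members were at -0.43 and the longer ones at -0.04, and in VCAM1-negative replicate 3 at -0.45 and -0.14. Across the 83 members, Spearman's rho of deviation with length ran from -0.40 in VCAM1-high replicate 1 to 0.40 in VCAM1-high replicate 3 (n = 83 genes that share a library, not independent replicates). Libraries of 1 group thus differed in how short and long subunits stood to each other. The part of transcript length in the differences between groups was not tested.

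**Figure D5:**
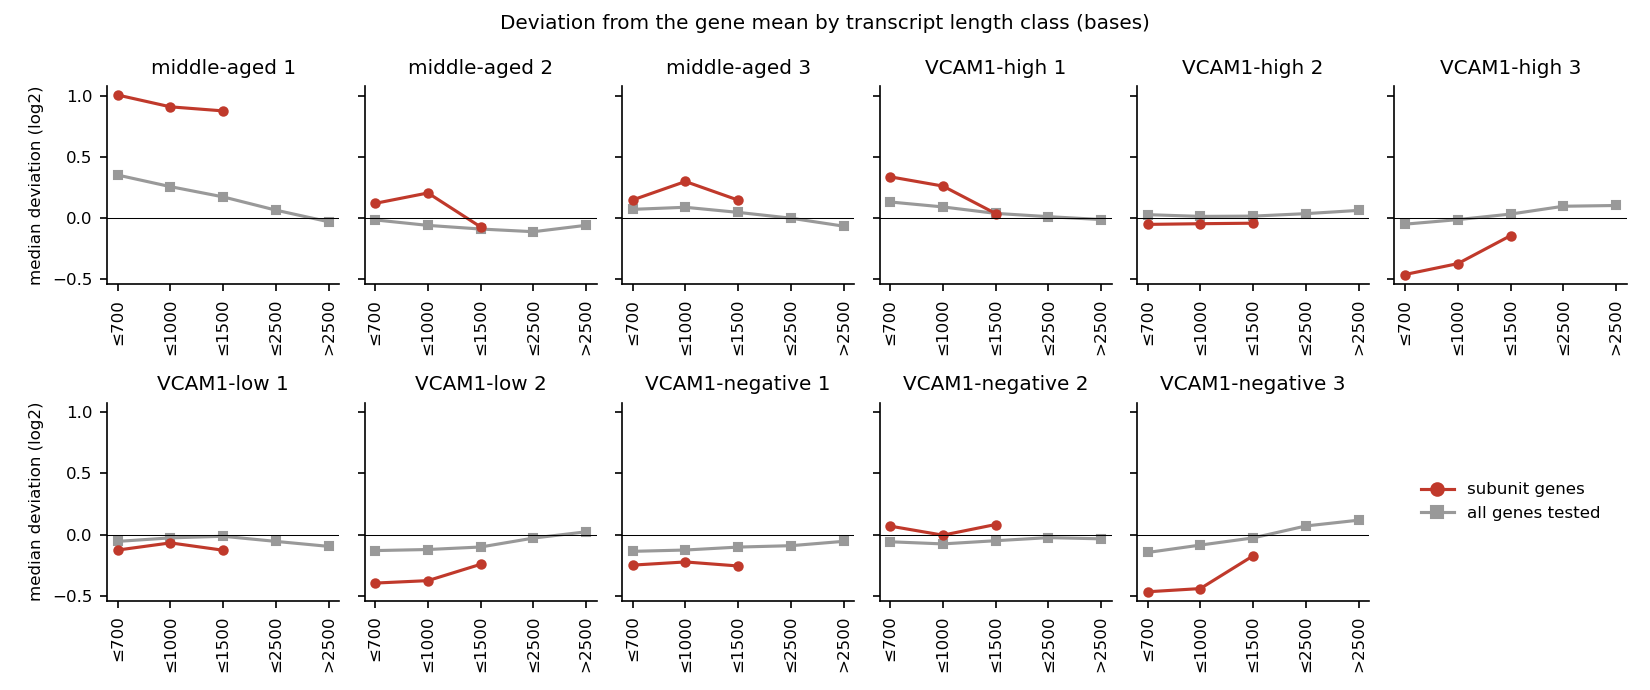
Median deviation from the gene mean (y axis, log2) by transcript length class (x axis, bases) in each of the 11 libraries, for the subunit genes (red circles; classes with too few members are not drawn) and all tested genes (grey squares). In middle-aged replicate 1 both lines fall with length and the subunits stand well above other genes of their length; in the third VCAM1-high and VCAM1-negative libraries the short subunits lie lowest.

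Other genes of mitochondrial metabolism were read in the same way, from lists drawn up by function. Of 47 assembly factors, which build the complexes, 7 fell and 1 rose in geriatric against middle-aged cells, where 7.81% of all genes fell and 8.04% rose (median -0.20). The same shares of all genes apply to the lists that follow. Bcs1l, which inserts the Rieske protein into complex III, fell by 1.17 on the log2 scale (limma adjusted p = 0.0200) and Ndufaf2 by 1.06 (adjusted p = 0.0153). The riser was Coa7, at 0.69 ± 0.18. Of 24 genes of the citrate cycle and pyruvate dehydrogenase 4 fell and 1 rose (median -0.25). Those that fell were Idh2, Fh1, Suclg1 and Pdha1. Idh2, the NADP-linked isocitrate dehydrogenase, was 296, 132 and 189 RPKM in middle-aged cells and 53.0 to 147 in geriatric cells. Of 6 other subunits and electron carriers 1 fell, Etfb, which brings electrons from fatty acid oxidation to the chain. Without middle-aged replicate 1 none of these genes that fell passed, and neither did Coa7.

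A few genes around the chain went the other way. Pdk4, the kinase that switches off pyruvate dehydrogenase, was 86.1, 73.2 and 57.7 RPKM in middle-aged cells and 112 to 372 in geriatric cells, with no overlap. Its log2 difference was 1.43 ± 0.31 (limma adjusted p = 0.0154), and it passed without middle-aged replicate 1 as well (adjusted p = 0.0461). Among 12 tested inner-membrane carriers and related genes 1 was called, Chchd10. This protein of the mitochondrial intermembrane space was at 3.7, 2.0 and 2.8 RPKM against 4.4 to 26.9 (log2 1.32 ± 0.30, adjusted p = 0.0179; 0.0476 without that library). Its highest values were in VCAM1-negative replicates 2 and 3, where myofibre genes were highest too.

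Of the 15 tested regulators of mitochondrial gene expression, 3 rose and 0 fell in geriatric cells, where 8.04% of all genes rose and 7.81% fell (median 0.14). Ppargc1a, the coactivator of mitochondrial biogenesis, was 0.8, 0.9 and 0.8 RPKM in middle-aged cells and 1.2 to 1.8 in geriatric cells (log2 0.51 ± 0.14, limma adjusted p = 0.0355). Nrf1, the factor that binds the GCGCATGCG motif above, was 18.1, 17.6 and 20.2 RPKM against 22.7 to 33.3 (log2 0.52 ± 0.15, adjusted p = 0.0382). Tfam, which packages and transcribes mitochondrial DNA, was 10.1, 8.3 and 6.9 RPKM against 10.9 to 14.7 (log2 0.53 ± 0.16, adjusted p = 0.0435). In all 3 the groups did not overlap. Middle-aged replicate 1 did not stand apart for these genes: without it the differences were 0.51, 0.50 and 0.65, with adjusted p-values of 0.104, 0.119 and 0.0609. Between VCAM1-negative and VCAM1-high cells limma called 0 of the 15 regulators, 0 of the 47 assembly factors and 0 of the 24 citrate cycle genes. It called 0% of all genes there, so these counts do not set the lists apart. At an unadjusted p under 0.05 there were 0, 2 and 1, against 6.53% of all genes.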

How the data were processed

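Total RNA of sorted cells was made into SMART-Seq v4 libraries and sequenced as paired ends, per the labels' protocols. The authors deposited 1 table of RPKM values; STAR 2.7.5b, Bowtie2 2.1.0, SAMtools 0.1.19, cutadapt 3.1 and build GRCm39 are named, without roles, per the submitters' processing notes. How reads were counted, and over which annotation and gene lengths, was not given in the sources used here. RPKM are not counts, so no count test was used: low values (up to 0.1 RPKM) came out as whole reads, within 0.1 read, for 63.5% to 73.2% of genes with 1 annotated transcript, against 20% by chance, and gave the depth estimates only.

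Values were taken as log2(RPKM + 1) for the 11568 genes with at least 1 RPKM in 2 or more libraries and fitted with limma 3.58.1 in R 4.3.3 (4 group means, trended moderated variance). Fold changes understate those of low genes. P-values were adjusted by Benjamini-Hochberg over all genes of a comparison, and a gene was called at an adjusted p under 0.05, in 7 comparisons and 1 F test. The geriatric mean weights the 3 gates equally. The fit was tested on simulated data. Replicate numbers pair samples where deviations of same-numbered libraries correlate above 0.1 in 3 or more pairs: they did within the geriatric gates (7 pairs, 0.403 to 0.581) and between middle-aged and VCAM1-high (0.211 to 0.554), as seen in the data, and not between middle-aged and VCAM1-negative cells (-0.025 to 0.081). Genes named are the called members, up to 8 per direction in 4 comparisons (or the 4 most extreme), isoform sets, the highest and lowest member per complex, the 4 Sdh genes, the 8 smallest F test p-values and markers of the sort; additions beyond this rule (Atp5a1, Atp5d, Atp5j, Ndufb4, Ndufb4c, Ndufs6, Ndufb2 and genes of the other lists) were chosen after their values were seen. Members and lists were chosen with earlier results of these data known. Transcript lengths are medians of GENCODE M21 protein-coding transcripts (GRCm38).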

Additional observations from a re-analysis of the deposited data

How the results depend on the processing

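The member counts depended on the processing as follows. For VCAM1-negative against VCAM1-high cells, 0 calls became 1 with equal RPKM sums, with median ratio scaling, with genes of a mean of 5 RPKM or more and with the replicate block over 11 libraries, 2 with a pseudocount of 0.1, and 3 with the replicate block over the 8 geriatric libraries. In that order, 0.112%, 0.139%, 0.236%, 0.562%, 0.19% and 4.42% of all genes were called. Leaving out 1 library gave 0 to 2 members, the most without VCAM1-negative replicate 1, where 1.11% of all genes were called. For VCAM1-high against middle-aged cells the replicate block gave 7 in place of 0, and no left-out library gave any (0 to 0). That block called 6.98% of all genes. For VCAM1-negative against middle-aged cells, 10 calls became 1 with no filter and 1 to 13 with 1 library left out. With no filter 4.71% of all genes were called, and 16.1% without VCAM1-high replicate 3, which gave the 13. For VCAM1-low against middle-aged cells, 1 call became 2 with equal RPKM sums, median ratio scaling or a pseudocount of 0.1, 3 with a mean of 5 RPKM or more, 0 with no filter, with no trend, with only the 2 groups compared, or without middle-aged replicate 3 and VCAM1-high replicate 3 together, and 0 to 2 with 1 library left out. Before the single left-out libraries, the shares of all genes called were, in that order, 3.98%, 4.88%, 4.97%, 7.42%, 0.563%, 3.57%, 6.35% and 3.3%. VCAM1-negative against VCAM1-low gave 0 to 2 with 1 library left out. The highest count came without VCAM1-negative replicate 1, where 1.01% of all genes were called. For geriatric against middle-aged cells, 17 calls became 5 with no filter, 10 without the 2 libraries named above, and 0 to 19 with 1 library left out: 0 without middle-aged replicate 1 or VCAM1-low replicate 2, 11 without middle-aged replicate 2, 4 without middle-aged replicate 3, 6 without VCAM1-high replicate 2, and 11 or 8 without VCAM1-negative replicate 2 or 3. With no filter 6.41% of all genes were called, and 10.3% without those 2 libraries. The shares for these single libraries are given in the results. In the F test 1 call became 2 with a pseudocount of 0.1, 0 with no filter and 0 to 2 with 1 library left out. That test called 3.32% of all genes in the main fit, and its shares under the other settings are not given here. The setting without those 2 libraries together, which hold the most Ly6a of their groups, was chosen after seeing the data.

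With the replicate number as a block, where the numbers do not pair the samples, the counts were 43 for VCAM1-negative against middle-aged, 36 for VCAM1-low against middle-aged, 50 for geriatric against middle-aged cells and 30 in the F test. In those comparisons with middle-aged cells, in that order, the block called 31.6%, 15.8% and 30.9% of all genes in either direction. No such share is given for the F test with the block, so its 30 cannot be read as a result about the members. The log2 ratio of geriatric to middle-aged RPKM sums stayed below 0 for all 5 complexes in every alternative, and for complex II it moved to -0.15 without middle-aged replicate 1 (-0.53 to -0.15 with 1 library left out; -0.72 to -0.29 for complex I, -0.74 to -0.33 for III, -0.66 to -0.23 for IV and -0.69 to -0.31 for V). Of 1225 recomputed fold changes of 63 named gene results, 980 kept their direction and side of the threshold, 198 no longer passed, 35 passed newly and 12 changed sign. The sign changes were those of 2 genes that never passed. Uqcrfs1, geriatric against middle-aged, was -0.0085 with median ratio scaling, -0.011 with the replicate block, -0.12 to 0.23 with 1 library left out, and -0.091 without the 2 libraries above. Ndufa4l2 was -1.55 to 0.093 in VCAM1-high against middle-aged with 1 library left out, and -1.24 to 0.39 in geriatric against middle-aged, or 0.36 without both libraries; it was above 0 only without middle-aged replicate 3. The cause of these changes was not tested. Depth limits the lowest members: for Cox7a1 and Cox4i2 a few reads make up a value.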
